A study of Mus musculus with 9 samples.

Results

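Glucuronidation genes were examined in the livers of mice lacking autophagy in hepatocytes. They were chosen by symbol and comprised Ugdh, 4 genes of the Ugt1a cluster (Ugt1a1, Ugt1a6a, Ugt1a6b and Ugt1a9) and 5 Ugt2b genes (Ugt2b1, Ugt2b5, Ugt2b34, Ugt2b35 and Ugt2b36), which are 10 of the 24411 genes in the table of counts. All 10 passed the filter on low counts. Poly(A) RNA was measured in whole livers of mice at 3 months of age, 3 per group. Control livers (cont.) were from Atg7flox/flox mice, in which both Atg7 alleles are floxed and no Cre is present. Atg7-KO livers were from Atg7flox/flox;Alb-Cre mice, whose Cre is driven by the albumin promoter and removes Atg7, a gene needed for autophagosome formation, chiefly from hepatocytes, so other liver cells keep it. Livers of the third group (Atg7-KO;p62 S351A, or S351A for short) also carried on both alleles a p62 in which a serine needed for tight binding of KEAP1 was replaced by alanine. For S351A replicates 2 and 3 the genotype entry names another p62 position than the title on 1 allele, and the titles were followed. All 3 groups shared the floxed Atg7 alleles, and p62 was unmutated in cont. and Atg7-KO. The comparisons ask what loss of hepatocyte Atg7 did to these genes and whether the weaker hold of p62 on KEAP1, the repressor of the transcription factor NRF2, altered it.

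Glucuronidation joins glucuronic acid to bilirubin, bile acids, steroids, phenols and many drugs, which makes them water soluble for export into bile or urine. UGDH oxidises UDP-glucose to UDP-glucuronate in the cytosol, the sugar donor is carried into the endoplasmic reticulum, and the UDP-glucuronosyltransferases (UGTs) of its membrane transfer the sugar to their substrates. The Ugt1a enzymes are made from 1 locus, each from its own first exon or exons joined to common last exons, while Ugt2b enzymes come from separate genes lying side by side. Liver UGTs are textbook targets of NRF2 and of the nuclear receptors CAR, PXR and PPARα, and of the aryl hydrocarbon receptor.

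The libraries held 713841 to 15426575 counts. The 3 S351A libraries were the smallest, so the depth and the p62 mutation cannot be told apart. A floor of 3 counts was 0.269 to 3.72 CPM, a count normalised to the scaled size of its library, and every value of the 10 genes was above it. Of the 11238 genes tested, 38.0% were called in Atg7-KO against cont., 0.00890% in S351A against Atg7-KO and 28.6% in S351A against cont. Calls came from edgeR's quasi-likelihood test, at an adjusted p under 0.05 and a change above 1.5-fold. Atg7 was lower than in cont. by 0.74 on the log2 scale in Atg7-KO (SE 0.19, adjusted p = 0.00748) and by 1.07 in S351A (SE 0.21, adjusted p = 0.00314). Xist and 4 Y-linked genes showed 2 male and 1 female livers in cont. and 1 male and 2 female livers in both other groups. In a whole liver, fewer cells of a type and less RNA per cell cannot be told apart. The summed level of 7 hepatocyte markers was 54312 to 108910 CPM in the cont. livers, 37461 to 43606 in Atg7-KO and 37008 to 48689 in S351A, and 5 of the 7 were called lower in both groups with Cre. By total library size 3 were called lower and 2 higher in Atg7-KO, and 1 lower and 2 higher in S351A. In S351A, 2 were called lower without S351A replicate 1 or 2, and 3 without cont. replicate 2 or 3. Ductular markers rose in 5 of 5 cases, from a summed 47.2 to 83.4 CPM in cont. to 816 to 1201 in Atg7-KO and 719 to 1193 in S351A, and Epcam in cont. replicate 1 was the only marker at 0 in any library. Matrix and stellate markers, of which 4 of 5 rose, summed to 54.8 to 119.7 CPM in the cont. livers, 699.9 to 862 in Atg7-KO and 514 to 703 in S351A. Macrophage markers, of which 4 of 5 rose (in S351A 2 without cont. replicate 1 or S351A replicate 1 or 3), summed to 175 to 239.7, 243 to 306 and 214 to 236 CPM in the same order. The 4 endothelial markers summed to 71.9 to 129, 113 to 126 and 93.0 to 109 CPM, but moved apart in Atg7-KO, with Lyve1 called higher (2.03, adjusted p = 1.32e-04) and Stab2 lower (-1.03, adjusted p = 0.0111). The Stab2 call was lost by total library size (-0.48, adjusted p = 0.182) and without Atg7-KO replicate 3 (adjusted p = 0.0567). In S351A, Lyve1 alone was called (1.33, adjusted p = 0.00526). The part of these shifts in the results that follow was not tested.

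The 10 genes lie at 3 places in the mouse genome (mm10, GENCODE release M21). Ugdh is on the minus strand of chromosome 5 from 65413221 to 65435949 and has 12 exons. The Ugt1a genes overlap one another on the plus strand of chromosome 1. Ugt1a9 starts at 88070800, Ugt1a6b at 88103252, Ugt1a6a at 88134809 and Ugt1a1 at 88211959, and the last 4 exons, from 88215044 on, are shared by the 9 annotated genes of the cluster. Only the last exon of Ugt1a7c runs on past 88219004, to 88220002. The Ugt2b genes lie on chromosome 5 in the order Ugt2b34 (from 86889767 to 86906937), Ugt2b1 (86916638 to 86926530), Ugt2b35 (87000860 to 87013275), Ugt2b36 (87065927 to 87092555) and Ugt2b5 (87124960 to 87140318). Ugt2b35 is on the plus strand and the other 4 are on the minus strand.

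**Figure D1:**
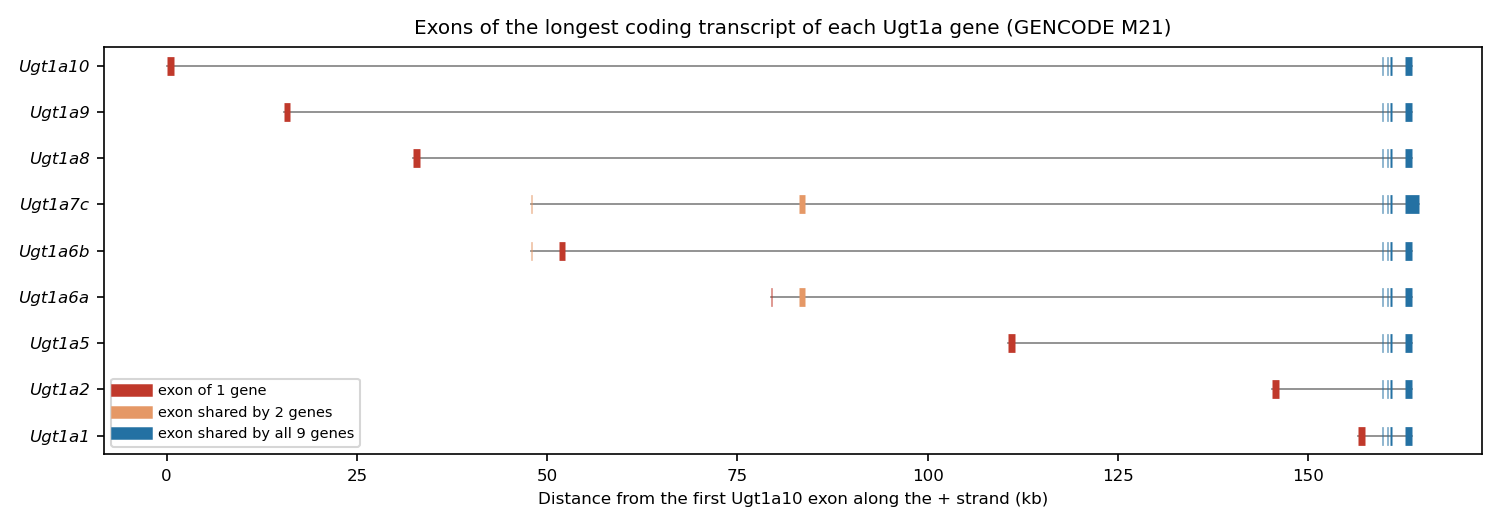
Exons of the longest coding transcript of each of the 9 annotated Ugt1a genes, drawn to scale in kb from the first Ugt1a10 exon. The 4 last exons (blue) overlap in all 9 genes, and reads from the stretch they share cannot be given to 1 gene by sequence. The last exon of Ugt1a7c is drawn blue but runs on to 88220002, whereas the others end by 88219004. Apart from that end, only the red exons belong to 1 gene.

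The promoter sequences of 9 of the 10 genes were taken from RefSeq (GRCm38.p6, the build mm10), and the 250 bases before the RefSeq start were searched on both strands. The antioxidant response element core TGACNNNGC, the motif of NRF2, occurred in 10.2% of the 32851 promoters of the same length. GCGTG, the core bound by the aryl hydrocarbon receptor, was found in 28.2%. GTTAAT, a half-site of HNF1, was found in 6.43%. Ugdh held TGACNNNGC at 2 places, 132 and 94 bases before the RefSeq start, and GCGTG at 3, of which the one at 94 bases overlaps the antioxidant response element core. It was the only one of the 9 with either motif. Its promoter is shown because it alone carries the NRF2 core, from chr5:65435950-65436092 on the minus strand, and it stops where the GENCODE first exon begins, since the last 107 bases of the searched window lie in that exon. Capitals mark TGACNNNGC or GCGTG on either strand.
Ugdh: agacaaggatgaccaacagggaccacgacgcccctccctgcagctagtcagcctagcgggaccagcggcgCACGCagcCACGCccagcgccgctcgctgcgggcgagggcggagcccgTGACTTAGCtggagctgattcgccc

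Ugt1a9, Ugt1a1 and Ugt1a6a each held 1 GTTAAT, read on the opposite strand as ATTAAC, at 91, 41 and 50 bases before the start. They are all the Ugt1a members with a promoter entry, since Ugt1a6b, the member that was lower, has none. Among the other Ugt genes, Ugt2a3 held 2 half-sites and Ugt3a1 held 1, and both were called lower, while Ugt1a10 held 2 and did not pass the filter on low counts. The last 120 bases before the RefSeq start of the 3 members are shown, all on the plus strand, from chr1:88070659-88070778, chr1:88211839-88211958 and chr1:88134689-88134808. Capitals mark the half-site.
Ugt1a9: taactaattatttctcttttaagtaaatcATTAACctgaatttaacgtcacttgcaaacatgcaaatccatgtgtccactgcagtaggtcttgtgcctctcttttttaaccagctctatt
Ugt1a1: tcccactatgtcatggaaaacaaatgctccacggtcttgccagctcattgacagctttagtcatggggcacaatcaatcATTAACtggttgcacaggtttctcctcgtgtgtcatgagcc
Ugt1a6a: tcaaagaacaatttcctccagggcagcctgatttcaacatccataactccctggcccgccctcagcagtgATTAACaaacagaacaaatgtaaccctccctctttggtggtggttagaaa

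None of the 3 motifs was found in the 5 Ugt2b members. Ugt2b5 and Ugt2b36, which were both called lower, shared a run of 24 bases close to the start, marked in capitals, that occurred in 3 promoters of the table, those of Ugt2b5, Ugt2b36 and Ugt2b37. The other pairs of Ugt2b members shared runs of 7 to 14 bases. The sequences are from chr5:87140341-87140460 and chr5:87092556-87092675, both on the minus strand. A match is a description of these letters and not evidence of binding.
Ugt2b5: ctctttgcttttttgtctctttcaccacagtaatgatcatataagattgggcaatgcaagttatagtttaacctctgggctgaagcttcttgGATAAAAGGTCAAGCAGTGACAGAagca
Ugt2b36: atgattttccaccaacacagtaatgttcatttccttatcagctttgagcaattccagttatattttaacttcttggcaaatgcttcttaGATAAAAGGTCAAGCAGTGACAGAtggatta

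In livers lacking Atg7 the genes differed from cont. in both directions. Compared with cont., Ugt1a9 and Ugt1a6a were higher in Atg7-KO livers, and Ugt1a6b, Ugt2b1, Ugt2b5 and Ugt2b36 were lower. Ugdh, Ugt1a1, Ugt2b34 and Ugt2b35 did not pass the test. The 6 members called, 2 higher and 4 lower, stand against 19.9% of all genes tested called higher and 18.1% called lower. Groups did not overlap for 3 members that were higher and 4 that were lower, against 26.8% and 24.8% of all genes. The median log2 fold change of the 10 members was 0.42, and that of all genes tested was -0.03. Levels below are CPM scaled by TMM, which sets most genes to be equal between libraries. Scaling by total library size instead raised the median difference over all genes by 0.55 on the log2 scale, and by that scale 6 members were called higher and 3 lower.

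**Figure D2:**
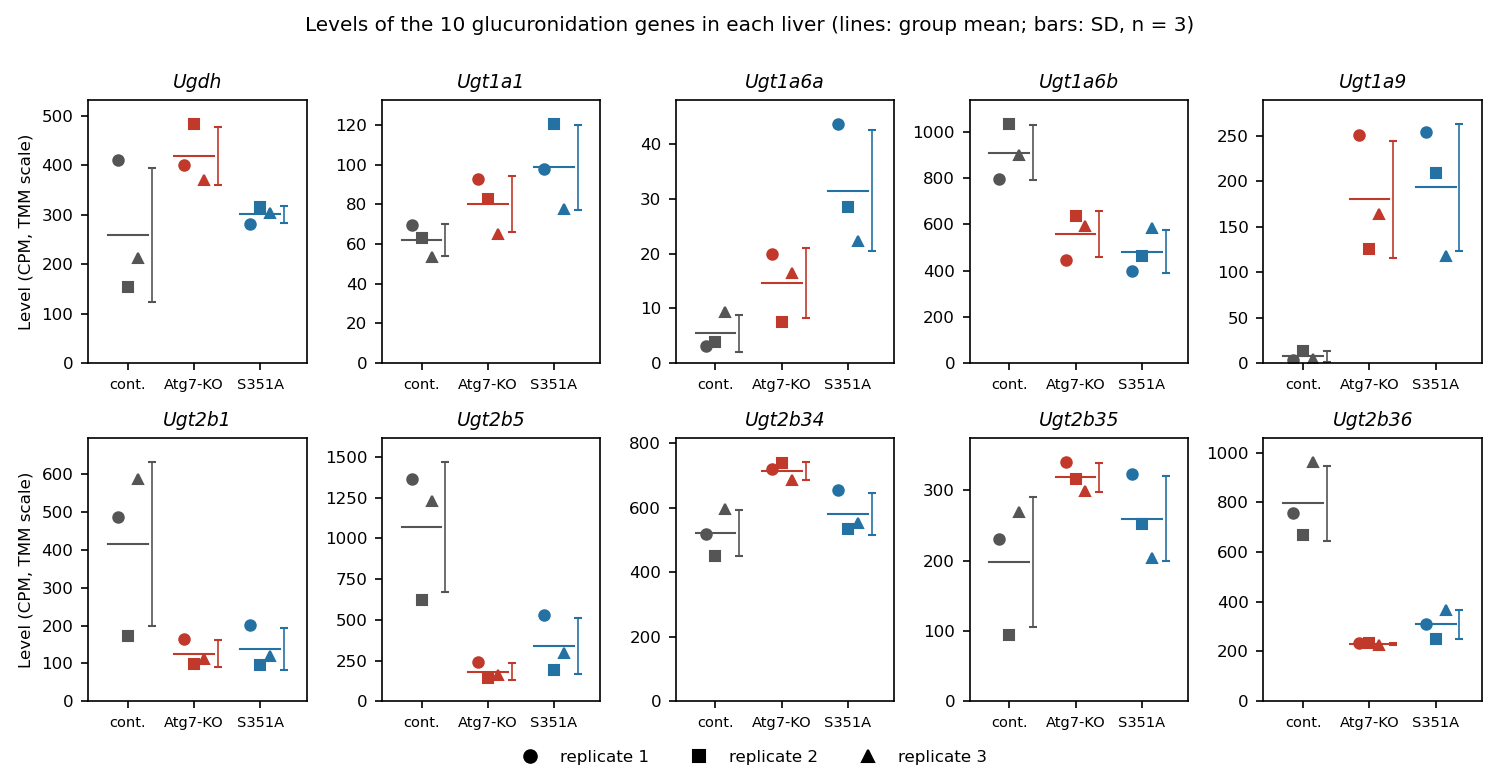
Level of each gene in each of the 9 livers (CPM on the TMM scale, vertical axis from 0), by group, with replicates 1 to 3 as circles, squares and triangles, group means as lines and SD as bars (n = 3). Ugt1a9 goes from at most 13.7 CPM in cont. to at least 117 CPM in both groups with Cre, while Ugt2b5 and Ugt2b36 lie lower in all 6 of those livers than in any cont. liver.

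Ugdh, the enzyme that makes UDP-glucuronate, was at 411, 153 and 214 CPM in the cont. livers and at 401, 484 and 371 CPM in Atg7-KO. One cont. liver, replicate 1, lay within the Atg7-KO range and the other two lay below it, so the groups overlapped. The means were 259 ± 135 and 419 ± 58.3 CPM (SD, n = 3), a log2 fold change of 0.69 (SE 0.31, 95% interval 0.015 to 1.38), and the adjusted p of 0.0982 missed the threshold. Without cont. replicate 1 the log2 fold change was 1.17 and the adjusted p 0.00294, a call of higher, and without cont. replicate 2 they were 0.42 and 0.283. By total library size it was 1.20 with an adjusted p of 0.0112. In S351A, Ugdh was at 281, 317 and 305 CPM. Each of these was below each Atg7-KO liver and inside the cont. range. The log2 fold change was -0.48 against Atg7-KO (95% interval -1.16 to 0.21, adjusted p = 0.851) and 0.22 against cont. (adjusted p = 0.645). Leaving out cont. replicate 1 gave 0.69 and an adjusted p of 0.0462 for the comparison with cont., and leaving out cont. replicate 2 turned the value to -0.060.

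Over the 9 libraries, the genes whose log2 CPM followed that of Ugdh most closely, of 8814 with a mean of at least 10 CPM, were 2200002D01Rik (Pearson r = 0.951), Anxa7 (0.951), Armc5 (0.947), Plk2 (0.942) and Rcan1 (0.937). These are descriptions over 9 libraries that share group differences, scaling and depth.

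Ugt1a9, which conjugates phenols, showed the largest difference of the 10 in either comparison with cont. It was at 3.82, 13.7 and 4.30 CPM in the cont. livers, from 6, 39 and 48 counts. Atg7-KO livers had 251, 125 and 164 CPM, from 1083, 349 and 359 counts. In S351A the values were 254, 209 and 117 CPM. All 6 livers with Cre were above all 3 cont. livers, and the 2 groups with Cre overlapped. The fitted difference was 25.2-fold in Atg7-KO (log2 fold change 4.65, SE 0.50, adjusted p = 3.00e-05) and 26.9-fold in S351A (log2 fold change 4.75, SE 0.50, adjusted p = 5.95e-05). Between S351A and Atg7-KO it was 0.10 on the log2 scale, with a 95% interval from -0.79 to 0.99 and an adjusted p of 0.985. The female cont. liver, replicate 2, was highest of its group. Within males the level went from a mean of 4.06 to 251 and 254 CPM, and within females from 13.7 to means of 145 and 163 CPM.

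Ugt1a6b, an enzyme of small planar phenols, was the most abundant Ugt1a row and moved the other way. Its levels were 795, 1034.5 and 902 CPM in the cont. livers and 448, 638 and 592 CPM in those of Atg7-KO, without overlap, and the log2 fold change was -0.70 (SE 0.24, adjusted p = 0.0356). In S351A they were 399.7, 464 and 585 CPM, again all below cont. (log2 fold change -0.92, SE 0.24, adjusted p = 0.0144) and overlapping Atg7-KO (-0.21, 95% interval -0.74 to 0.31). The call in Atg7-KO is not firm. By total library size the value was -0.17 with an adjusted p of 0.577, and it was lost on leaving out cont. replicate 2 or any 1 of the 3 Atg7-KO livers, with adjusted p from 0.0628 to 0.155. The S351A call was lost by total library size (-0.43, adjusted p = 0.187) and without S351A replicate 1 or 2 (adjusted p 0.0672 and 0.0571).

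Ugt1a6a, the neighbouring gene for the same class of phenols, was low throughout. Its cont. libraries held 5, 11 and 104 counts (3.18, 3.87 and 9.32 CPM), those of Atg7-KO 86, 21 and 36 counts (19.9, 7.54 and 16.5 CPM) and those of S351A 38, 23 and 18 counts (43.6, 28.5 and 22.2 CPM). Atg7-KO replicate 2 lay inside the cont. range, and every S351A liver lay above every liver of the other groups. The log2 fold change was 1.22 in Atg7-KO against cont. (SE 0.43, adjusted p = 0.0413) and 2.31 in S351A against cont. (SE 0.46, adjusted p = 0.00313). S351A exceeded Atg7-KO by 1.09 (95% interval 0.14 to 2.04), and the adjusted p was 0.713. The Atg7-KO call was lost on leaving out cont. replicate 1, cont. replicate 2, Atg7-KO replicate 1, Atg7-KO replicate 3 or S351A replicate 2, with adjusted p from 0.0592 to 0.192. Of all 75-base windows of the Ugt1a6a transcript, 2.16% occur in no other gene and 96.0% also occur in a transcript of Ugt1a7c, and 25.2% of those of Ugt1a6b are its own, so the estimated counts of Ugt1a6a are uncertain. Taken as a pair, Ugt1a6a and Ugt1a6b summed to 916 ± 120.1 CPM (cont.), 574 ± 93.9 CPM (Atg7-KO) and 514 ± 83.9 CPM (S351A), each with SD and n = 3.

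Ugt1a1, the bilirubin-conjugating enzyme, was at 69.4, 63.0 and 53.5 CPM in the cont. livers, 92.7, 82.6 and 65.0 CPM in Atg7-KO and 97.6, 120.4 and 77.7 CPM in S351A. The cont. and Atg7-KO livers overlapped, and all S351A livers were above all cont. livers. The log2 fold change was 0.38 in Atg7-KO against cont. (SE 0.22, adjusted p = 0.189), and 0.91 with an adjusted p of 0.00721 by total library size. In S351A against cont. it was 0.68 (SE 0.23, adjusted p = 0.0409). That call was lost without cont. replicate 2 or 3, without any 1 of the Atg7-KO livers and without S351A replicate 1 or 2, with values between 0.49 and 0.69 and adjusted p from 0.0560 to 0.189. S351A and Atg7-KO differed by 0.30 (95% interval -0.19 to 0.78). Of the 75-base windows of Ugt1a1 21.2% were its own, against 40.6% for Ugt1a9, whose first exon spans 879 bases from 88070800 to 88071678.

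The make-up of the Ugt1a counts differed between groups. The 8 Ugt1a rows of the table summed on the TMM scale to a mean of 992.5 ± 122 CPM for cont., against 842 ± 23.5 for Atg7-KO and 842 ± 28.0 for S351A (SD, n = 3). As CPM of the total counts, the order turned, with 779.9 ± 102 for cont., 957 ± 3.54 for Atg7-KO and 923 ± 28.7 for S351A, so that no direction can be given for the sum. Shares within the sum do not depend on the scaling. Ugt1a6b made up 91.7% ± 1.08 of it for cont., 66.2% ± 10.1 for Atg7-KO and 57.7% ± 13.2 for S351A. Ugt1a9 went from a mean of 0.6995% ± 0.454 to 21.6% ± 8.33 and 22.8% ± 7.59, and its lowest share in a liver with Cre was 14.4% against a highest of 1.22% in cont. Ugt1a1 took 6.33%, 9.53% and 11.7%, and Ugt1a6a 0.554%, 1.75% and 3.71%, in the same order of groups. These shares are of estimated counts over a shared 3′ part and were not tested.

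**Figure D3:**
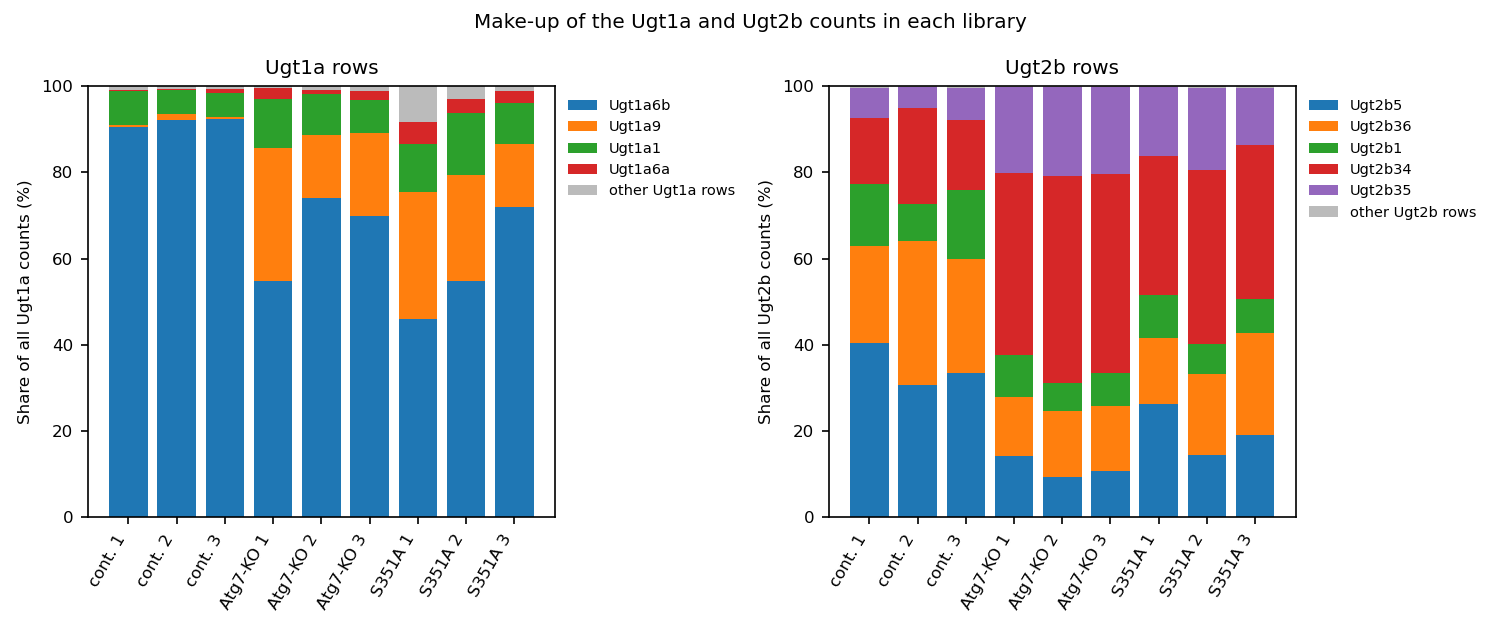
Share of each row in all Ugt1a counts (left) and all Ugt2b counts (right) of each library, in percent, stacked to 100. In the 6 libraries with Cre, Ugt1a9 takes at least 14.4% of the Ugt1a counts against at most 1.22% in cont., and Ugt2b34 at least 32.3% of the Ugt2b counts against at most 22.4%.

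The Ugt2b enzymes conjugate steroids, bile acids and drugs, and 3 of the 5 fell. Ugt2b5 had 1365, 619 and 1228 CPM in cont. livers and 242, 145 and 160.1 CPM in Atg7-KO. Every Atg7-KO liver was below every cont. liver, and the gene was 5.86-fold lower (log2 fold change -2.55, SE 0.41, adjusted p = 4.74e-04). S351A livers were at 531, 192 and 295 CPM, below all cont. livers (log2 fold change -1.66, SE 0.40, adjusted p = 0.00856) and overlapping Atg7-KO. The difference between S351A and Atg7-KO was 0.89 (95% interval 0.04 to 1.75), with an unadjusted p of 0.0412 and an adjusted p of 0.754. Ugt2b5 shares 28.4% of its 75-base windows with Ugt2b38, which was listed at 0 in all 6 libraries with Cre, and 69.6% are its own.

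Ugt2b36 was at 758, 669 and 962 CPM in the cont. livers, 233, 233 and 224 CPM in Atg7-KO and 312, 248 and 365 CPM in S351A. The 3 groups did not overlap, with S351A between the other two. The log2 fold change was -1.79 in Atg7-KO (SE 0.23, adjusted p = 1.20e-04) and -1.37 in S351A (SE 0.23, adjusted p = 0.00123), both against cont. S351A against Atg7-KO gave 0.42, with a 95% interval of -0.08 to 0.92 and an adjusted p of 0.829. All 75-base windows of Ugt2b36 were its own. Ugt2b37, the other holder of the 24-base run, averaged 6.13 CPM over the cont. livers and 5.13 CPM over Atg7-KO and had a log2 fold change of -0.01, with an SE of 0.66.

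Ugt2b1 was at 486, 173 and 589 CPM in the cont. livers, 166, 99.4 and 113 CPM in Atg7-KO and 201, 95.6 and 118 CPM in S351A. The low cont. value was that of the female liver. Every Atg7-KO liver was below every cont. liver, whereas S351A replicate 1 was above the female cont. liver. The log2 fold change was -1.72 in Atg7-KO (SE 0.42, adjusted p = 0.00613) and -1.59 in S351A (SE 0.42, adjusted p = 0.0144). By total library size the S351A value was -1.09 with an adjusted p of 0.0603, and without S351A replicate 2 it was -1.40 with 0.0672. S351A and Atg7-KO differed by 0.13 (95% interval -0.77 to 1.04). Within sex, Ugt2b1 went from a mean of 538 to 166 and 201 CPM in males and from 173 to means of 106 and 107 CPM in females, a fall of 1.70 and 0.71 on the log2 scale for Atg7-KO in males and females. The male value rests on 1 Atg7-KO liver and the female value on 1 cont. liver, so a sex difference cannot be read from them.

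Ugt2b34 and Ugt2b35 did not fall. Ugt2b34 was at 520.04, 450.2 and 595 CPM in the cont. livers, 720.3, 738 and 685 CPM in Atg7-KO and 656, 535 and 551 CPM in S351A. Atg7-KO livers were above all others, and cont. and S351A overlapped. The difference from cont. was 0.45 (SE 0.21, adjusted p = 0.111) in Atg7-KO and 0.15 (SE 0.21, adjusted p = 0.629) in S351A, and S351A against Atg7-KO was -0.30 (95% interval -0.76 to 0.16). Total library size gave 0.99 (adjusted p = 0.00247) for Atg7-KO and 0.64 (adjusted p = 0.0332) for S351A, and both were then called higher.

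Ugt2b35 was at 230.4, 93.6 and 269.5 CPM in the cont. livers, 340.3, 317 and 299.6 CPM in Atg7-KO and 324, 252 and 204 CPM in S351A. The female cont. liver was again the lowest, and Atg7-KO did not overlap with cont. The log2 fold change was 0.69 (SE 0.33, adjusted p = 0.122) in Atg7-KO and 0.39 (SE 0.34, adjusted p = 0.411) in S351A. With sex in the model Ugt2b35 was called higher in Atg7-KO (1.02, adjusted p = 0.0155), and it was called too without cont. replicate 3 (0.98, adjusted p = 0.0405) and by total library size (1.23, adjusted p = 0.00903). Without the female cont. liver, replicate 2, the value was 0.34 with an adjusted p of 0.320. S351A against Atg7-KO was -0.30, with a 95% interval of -1.02 to 0.43.

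The 7 Ugt2b rows of the table summed to 3017 ± 882 CPM for cont., 1576.5 ± 116 for Atg7-KO and 1633 ± 358 for S351A (SD, n = 3). As CPM of the total counts the sums were 2362 ± 659.6, 1795 ± 182 and 1795 ± 413, so the 2 groups with Cre stayed lower in the mean but by less. The lowest cont. value, 1608, lay inside the range of S351A and below that of Atg7-KO (1670 to 2003). Ugt2b5 took 34.9% ± 4.98 of the sum for cont., 11.5% ± 2.45 for Atg7-KO and 19.9% ± 5.89 for S351A. Ugt2b36 took 27.3%, 14.6% and 19.3%, and Ugt2b1 13.0%, 7.92% and 8.26%. Ugt2b34 took 18.0% ± 3.81, 45.4% ± 2.96 and 36.1% ± 3.95, and Ugt2b35 6.28%, 20.2% and 16.0%. The leading Ugt2b row was Ugt2b5 in cont. replicates 1 and 3 and Ugt2b36 in the female cont. liver, and it was Ugt2b34 in all 6 livers with Cre.

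None of the 10 genes was called in S351A against Atg7-KO, where 1 of the 11238 genes was called (0.00890%). In edgeR, 2 of the 10, Ugt1a6a and Ugt2b5, were below 0.05 before adjustment, as were 6.58% of all genes. DESeq2 and limma-voom also called 0 of the 10. Ugdh and Ugt2b34 were lower in every S351A liver than in any Atg7-KO liver, and Ugt1a6a and Ugt2b36 were higher, against 9.24% and 7.64% of all genes. Intervals were wide, and that of Ugt2b1 spanned -0.77 to 1.04 and that of Ugt1a9 -0.79 to 0.99. Differences larger than these also missed the threshold in this comparison, such as 1.25 for Ugt3a1 (adjusted p = 0.310) and 3.87 for Cyp4a14 (adjusted p = 0.565). Against cont., 7 of the 10 were called in S351A, 3 higher and 4 lower, where all genes gave 15.6% higher and 13.0% lower. By total library size 4 were called higher and 2 lower. Without S351A replicate 2, 4 were called, 2 higher and 2 lower. Groups did not overlap for 3 members that were higher and 3 that were lower, against 19.6% and 18.4% of all genes. The 2 comparisons with cont. share the cont. livers, and their values are given side by side for that reason and not compared.

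**Figure D4:**
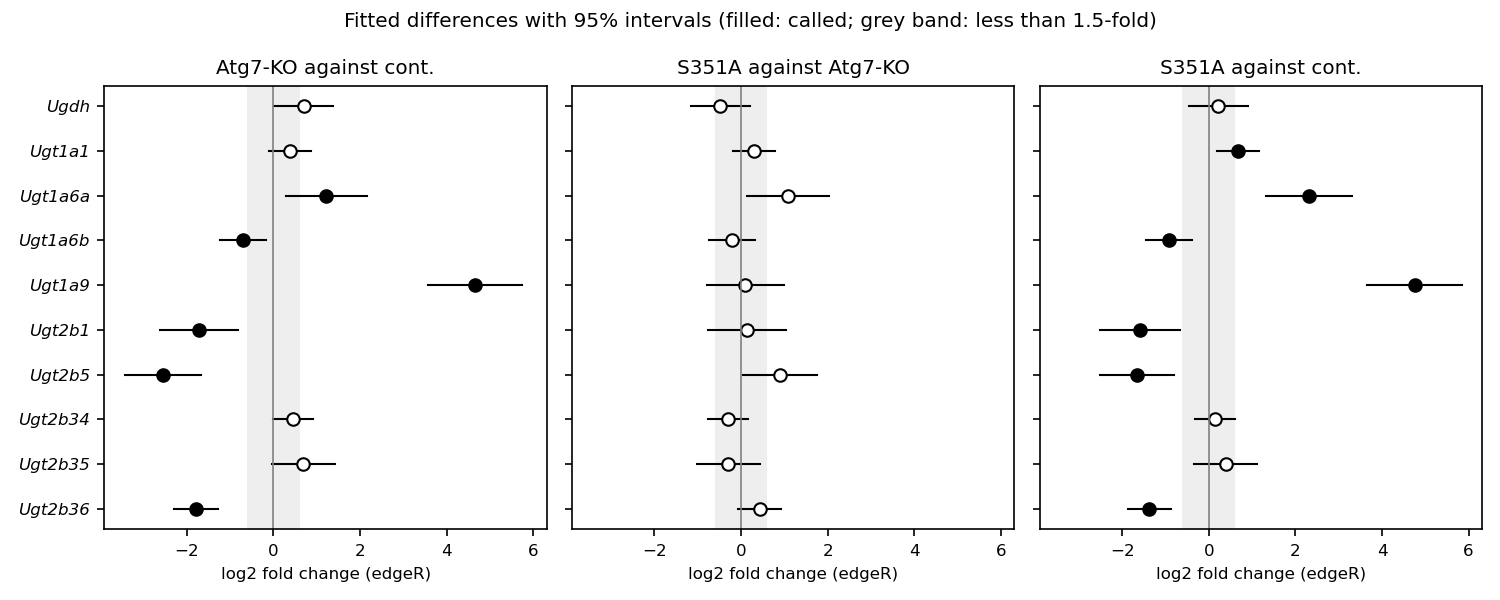
Fitted log2 fold change of each gene in the 3 comparisons, with 95% intervals (edgeR), filled where called and with a grey band over changes under 1.5-fold. Ugt1a9 stands at 4.65 and 4.75 against cont., the called falls run from -0.70 for Ugt1a6b to -2.55 for Ugt2b5, and no gene is called in S351A against Atg7-KO.

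Divided by the length of the longest coding transcript, levels can be set between genes. In cont. the order of the mean CPM per kb was Ugt2b5 (576 ± 214), Ugt2b36 (422 ± 79.4), Ugt1a6b (395 ± 52.1), Ugt2b1 (162 ± 84.1), Ugt2b34 (121 ± 16.8), Ugdh (102 ± 52.9), Ugt2b35 (58.9 ± 27.5), Ugt1a1 (27.9 ± 3.60), Ugt1a9 (3.33 ± 2.55) and Ugt1a6a (2.38 ± 1.46). The first 3 overlapped in range, as did Ugt2b1, Ugt2b34 and Ugdh, and the last 2 overlapped each other and lay below all others. In Atg7-KO, Ugt1a6b led (243 ± 43.1 CPM per kb), followed by Ugt2b34 (166 ± 6.28) and Ugdh (164 ± 22.9), whose ranges overlapped. Ugt1a9 had moved up to 82.3 ± 29.4 CPM per kb, overlapping Ugt2b5 (98.2 ± 28.1) and Ugt2b35 (94.9 ± 6.09). In S351A, Ugt1a6b (209.7 ± 40.8), Ugt2b5 (183 ± 93.3) and Ugt2b36 (163 ± 31.0) led with overlapping ranges, and Ugt1a9 was at 88.2 ± 31.8 CPM per kb. Shared exons make the levels per length of Ugt1a rows less certain than those of Ugt2b rows.

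The other genes of the pathway were taken from lists of enzymes, carriers and regulators. Counts called in the lists below stand against 19.9% of all genes called higher and 18.1% lower in Atg7-KO against cont. In S351A against cont. these shares were 15.6% and 13.0%. Of 5 genes for the supply and uptake of UDP-glucuronate, 3 were called higher in Atg7-KO, and the median log2 fold change was 0.93. Total library size gave 4 higher. Pgm1, a phosphoglucomutase, rose by 1.57 (SE 0.27, adjusted p = 6.95e-04), and Slc35d1, a carrier of UDP-glucuronate into the endoplasmic reticulum, by 1.34 (SE 0.26, adjusted p = 0.00181). Pgm2, another phosphoglucomutase, averaged 112 CPM in cont. against 6.81 CPM for Pgm1. It was not called in Atg7-KO (0.44, SE 0.25, adjusted p = 0.198). Ugp2, which makes UDP-glucose, was at 185, 238 and 391 CPM in cont. and at 454, 559 and 547 CPM in Atg7-KO, without overlap (0.93, SE 0.28, adjusted p = 0.0208), and the call was lost without cont. replicate 1 or 2 or without Atg7-KO replicate 2 or 3, with adjusted p from 0.0632 to 0.0736. In S351A against cont., Pgm1 (1.34, adjusted p = 0.00637) and Slc35d1 (1.43, adjusted p = 0.00238) were called higher and Ugp2 was not (0.26, adjusted p = 0.538), and Pgm2 was called lower without cont. replicate 1 (-0.66, adjusted p = 0.0396). None of the 5 was called in S351A against Atg7-KO. The values there were -0.68 for Ugp2 (adjusted p = 0.741), -0.83 for Pgm2 (adjusted p = 0.624) and 0.09 for Slc35d1.

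The list of other Ugt genes held 13, of which 12 were in the table and 5 passed the filter, and of these 3 were called lower in Atg7-KO and none higher. Ugt8a, the galactosyltransferase of myelin lipids, did not pass the filter. It had 0 counts in each cont. library, 21, 6 and 8 in Atg7-KO and 3, 1 and 5 in S351A. In S351A against cont., 2 of the 5 were called lower and none higher, and 1 was called higher by total library size (Ugt1a5). With 1 library left out, 7 to 9 genes of the list passed the filter, and 0 or 1 were called higher in Atg7-KO and 1 to 3 in S351A against cont. Those called higher were Ugt8a, Ugt1a2 and Ugt1a7c, which have low counts and pass the filter in some of these fits only, so their calls carry little weight. Ugt2b38 was likewise called lower in Atg7-KO in 7 of these 9 fits. Ugt3a1, which uses N-acetylglucosamine in place of glucuronic acid, was at 62.4, 86.2 and 92.7 CPM in the cont. livers, 9.51, 6.82 and 8.23 CPM in Atg7-KO and 17.2, 23.6 and 18.5 CPM in S351A. All 3 groups were apart. Its log2 fold change was -3.29 in Atg7-KO (SE 0.24, adjusted p = 2.22e-06) and -2.04 in S351A (SE 0.24, adjusted p = 1.39e-04) against cont., and 1.25 in S351A against Atg7-KO, with an adjusted p of 0.310 that missed the threshold. Ugt2a3, a neighbour of the Ugt2b genes, was lower by -1.72 and -1.40 (adjusted p = 2.66e-04 and 0.00204). Ugt3a2 was lower by -1.63 in Atg7-KO (adjusted p = 4.33e-04), and its value of -0.59 in S351A was not called (adjusted p = 0.105).

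Among 9 tested genes that use or release glucuronate, Atg7-KO had 3 called lower and 1 higher. Rgn, the lactonase of vitamin C synthesis, fell by 2.81 (SE 0.29, adjusted p = 2.42e-05) and Dcxr, the reductase of L-xylulose, by 2.41 (SE 0.25, adjusted p = 2.41e-05). Xylb, the xylulokinase that follows it, was lower by -1.12 (adjusted p = 0.0113), and was not called by total library size (-0.61, adjusted p = 0.134) or without Atg7-KO replicate 1 (adjusted p = 0.0526). Gusb, the lysosomal enzyme that removes glucuronic acid from its conjugates, was at 7.00, 10.2 and 13.8 CPM in the cont. livers, against 25.5, 18.7 and 21.5 CPM in Atg7-KO, higher by 0.99 (SE 0.29, adjusted p = 0.0179). Without Atg7-KO replicate 1 its adjusted p was 0.0860. Without cont. replicate 1, Atg7-KO had 2 genes of the list called higher and 5 called lower. The same 4 genes were called in S351A against cont., 1 higher and 3 lower. In this list total library size gave 2 higher and 2 lower, and leaving out cont. replicate 1 gave 2 higher and 3 lower. Without S351A replicate 1 none was higher and 2 were lower, with Gusb (0.96, adjusted p = 0.0797) and Xylb (-0.70, adjusted p = 0.151) no longer called. The Xylb call was also lost by total library size (-0.44, adjusted p = 0.296) and without cont. replicate 1 or 2, any 1 of the Atg7-KO livers or S351A replicate 2, with adjusted p from 0.0582 to 0.123.

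Transporters of glucuronides moved in both directions. In Atg7-KO, 1 of 8 was called higher and 3 lower. Abcc4, an export pump of the sinusoidal membrane, was at 7.64, 5.28 and 2.60 CPM in cont. and at 195, 229 and 188 CPM in Atg7-KO, higher by 5.51 on the log2 scale (SE 0.36, adjusted p = 1.23e-06). Abcc2, the canalicular pump of bilirubin glucuronides, had a log2 fold change of 0.02 with a 95% interval of -0.42 to 0.45, and Abcc3 one of -0.06 with -0.57 to 0.45. The uptake carriers Slco1a1 (-5.91, SE 1.02, adjusted p = 7.98e-04), Slco1b2 (-2.11, SE 0.22, adjusted p = 2.41e-05) and Slco2b1 (-1.78, SE 0.24, adjusted p = 1.57e-04) were lower. Slco1a1 was at 26.8 CPM in the female cont. liver and at 353 and 417 CPM in the male ones. In S351A against cont. 1 of the 8 was called higher, Abcc4 (4.50, adjusted p = 9.45e-06), and 4 lower, or 3 lower by total library size and in 7 of the 9 fits with 1 library left out.

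Of 11 regulators of Ugt genes, 4 were called lower and none higher in Atg7-KO, with a median log2 fold change of -0.63. Nr1i3, which encodes CAR, was at 339, 429 and 152 CPM in cont. and at 49.8, 71.1 and 46.2 CPM in Atg7-KO (log2 fold change -2.46, SE 0.37, adjusted p = 3.46e-04). Nr1h4, the bile acid receptor FXR, was lower by -1.61 (adjusted p = 8.56e-04), and Ppara by -1.16 (adjusted p = 0.00639), with -0.66 and an adjusted p of 0.0910 by total library size. That scale gave 3 called higher and 2 lower in this list, and 1 and 1 in S351A against cont. The RNA of Nfe2l2, which encodes NRF2, had a value of -0.77 (SE 0.32, adjusted p = 0.0780), that of Keap1 at 0.28 (adjusted p = 0.336) and that of Ahr at 0.01 (adjusted p = 0.976), none of them called. With TMM, 4 of the 11 were called lower in S351A against cont., and 1 without S351A replicate 1.

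Known targets of those regulators moved in both directions. In Atg7-KO, 7 of 12 tested rose and 3 fell. The NRF2 targets Srxn1 (5.00, SE 0.32, adjusted p = 1.03e-06) and Nqo1 (4.46, SE 0.36, adjusted p = 4.64e-06) rose, as did Tiparp, an aryl hydrocarbon receptor target (2.24, SE 0.38, adjusted p = 6.59e-04). Cyp1a2, another target of that receptor, was not called in Atg7-KO (0.17, adjusted p = 0.671) or in S351A against cont. (-0.71, adjusted p = 0.0741), and total library size gave 0.71 in Atg7-KO with an adjusted p of 0.0384. Cyp4a14 (-5.94, SE 1.19, adjusted p = 0.00199) and Cyp4a10 (-4.44, SE 0.79, adjusted p = 9.47e-04), targets of PPARα, and Cyp3a11 (-3.20, SE 0.55, adjusted p = 7.24e-04), a target of PXR, fell. In S351A against cont. 5 were called higher and 2 lower, and Cyp4a14 (-2.07, adjusted p = 0.131) was not among them. The number called lower was 4 without cont. replicate 1, and 1 by total library size and without cont. replicate 2, S351A replicate 1 or S351A replicate 2. The number called higher was 7 by total library size and 4 to 6 with 1 library left out. Against Atg7-KO none of the 12 was called, while 9 had an unadjusted p under 0.05, as had 6.58% of all genes. Of the 9, Cyp4a10 (2.18) and Cyp4a14 (3.87) were higher. Srxn1, Nqo1, Gclc, Gclm, Txnrd1, Gstm1 and Cyp1a2 were lower. Hmox1 was not one of the 9 and had a value of 0.49 (adjusted p = 0.884). Srxn1 was at 1464, 2126 and 1853 CPM in Atg7-KO and at 1012, 959 and 603 CPM in S351A, without overlap (log2 fold change -1.08, unadjusted p = 0.00162, adjusted p = 0.364), and Nqo1 likewise (-1.13, unadjusted p = 0.00362, adjusted p = 0.468). Ugt1a9 differed by 0.10 in that comparison and Ugdh by -0.48.

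**Figure D5:**
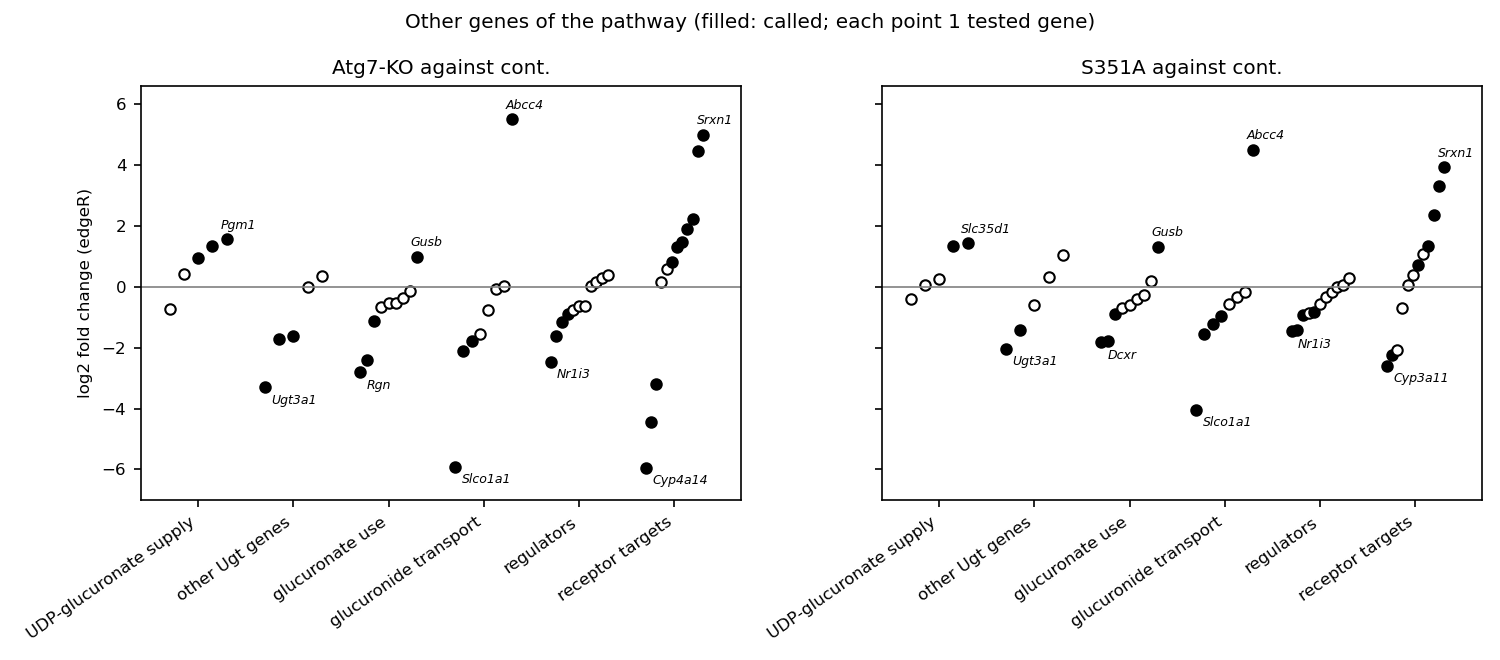
Log2 fold change (edgeR) of each tested gene of 6 lists in Atg7-KO (left) and S351A (right) against cont., filled where called, with the lowest and highest gene of each list named where called. In Atg7-KO the genes of UDP-glucuronate supply reach 1.57 for Pgm1, the other Ugt genes fall to -3.29 for Ugt3a1, and transporters and receptor targets run from about -5.9 to above 5.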

How the data were processed

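Poly(A) RNA of mouse liver was sequenced as 75-base single reads, which the authors aligned to mm10 with STAR and quantified with RSEM. Expected counts per gene symbol make up the deposited table, without scaling between libraries, and no column was left unused. The labels also name Trim Galore. The annotation, the strand setting and the versions were not given in the sources used here. Since strand is not known, reads of antisense or overlapping genes could not be separated, and the Ugt1a rows depend on how RSEM divided shared reads. Samples were grouped by their titles. The titles number the mice, and p-values measure the spread between these livers.

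Between 4.40% and 7.75% of the values in a library were not whole, and all were rounded. Depth was 713841 to 15426575 counts, and floors cover counting error only, whereas the 95% intervals of log2 fold changes include the spread between livers. Genes were filtered with filterByExpr (minimum count 10, minimum total 15), which kept 11238, scaled by TMM and fitted with edgeR 4.0.16 in R 4.3.3 by 1 quasi-likelihood model over all 9 libraries with a term per group. P-values were adjusted by Benjamini-Hochberg over all genes tested, and a gene was called at an adjusted p under 0.05 and a change above 1.5-fold, the thresholds of the study, whose tool was DESeq2. SE is the log2 fold change divided by the root of F. Fitted log2 fold changes used edgeR's small default prior, and log2 CPM for correlations a prior count of 2. The fit was also run on simulated counts in which few genes changed, as many up as down, so it could not test the scaling.

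Alternatives were limma-voom (limma 3.58.1), DESeq2 1.42.0, scaling by RLE, by totals or by totals leaving out the top 20 genes, a filter of 10 counts per library or none, the 6 compared libraries alone, a replicate block, sex as a covariate, thinning to the smallest library, and leaving out each library. Of libraries with the same replicate number, all 3 pairs of S351A and cont. deviated together from their group means (r = 0.234, 0.169 and 0.159), so the numbers may pair those groups. The pairs of S351A and Atg7-KO had r = 0.303, 0.0708 and 0.0937, and those of cont. and Atg7-KO 0.248, 0.0915 and -0.0427. Replicates 1 were male and replicates 2 female in every group, so for those numbers pairing and shared sex cannot be told apart. Running the alternatives for the pathway lists, and the family sums by total counts, was chosen after seeing the data. The 10 genes and the lists were chosen with earlier results of these data known. Named pathway genes were, per list and direction, up to 3 called genes with the largest change in Atg7-KO against cont., and values for other named genes were chosen after they were seen. Positions are from GENCODE M21 and promoters from RefSeq (GRCm38.p6), matched by symbol.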

Additional observations from a re-analysis of the deposited data

How the results depend on the processing

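Over 20 alternative settings, the log2 fold changes of the 10 genes kept their direction and their side of the threshold in 172 of 198 values for Atg7-KO against cont., 194 of 198 for S351A against Atg7-KO and 179 of 198 for S351A against cont. The rest were 15, 0 and 16 calls lost, 11, 0 and 2 calls gained, and 0, 4 and 1 changes of sign. In Atg7-KO against cont., the calls of Ugt1a9 (4.24 to 5.41), Ugt2b1 (-2.10 to -1.17), Ugt2b5 (-2.84 to -2.01) and Ugt2b36 (-1.91 to -1.25) were kept in every setting that tested them. Requiring at least 10 counts in every library left Ugt1a9 and Ugt1a6a untested. The number of genes called there was 6, and 4 to 9 over the settings, 4 to 7 with 1 library left out. In S351A against cont. it was 7, and 4 to 8 with 1 library left out, the lowest without S351A replicate 2. Against Atg7-KO it was 0 in every setting. Signs turned for Ugt1a9 in S351A against Atg7-KO on leaving out Atg7-KO replicate 2 (-0.11) or S351A replicate 1 (-0.15), for Ugt2b1 likewise (-0.014 and -0.24), and for Ugdh in S351A against cont. without cont. replicate 2 (-0.060), and the cause was not tested. With 1 library left out these 3 values ran from -0.15 to 0.41, from -0.24 to 0.38 and from -0.060 to 0.69. Total library size moved the median over all genes by 0.55 in Atg7-KO and 0.49 in S351A against cont., and totals leaving out the top 20 genes by 0.44 and 0.40. Under total library size 4306 genes were higher and 800 lower in Atg7-KO, against 2239 and 2032 with TMM, and 3511 and 514 in S351A, against 1753 and 1461. In S351A against Atg7-KO, genes called over the whole table numbered 1 with edgeR, 39 with DESeq2, 100 without a filter and 0 with limma-voom. The 9 pairs of libraries with the same number had correlations from -0.04 to 0.30 of their deviations from group means, 5 of them over 0.1, and the 18 other pairs -0.26 to 0.21, with 2 over 0.1. With a replicate block, 6, 0 and 7 of the 10 genes were called in the 3 comparisons, and no call among them changed. In the S351A libraries 3 counts are 3.45 to 3.72 CPM.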

Other observations

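Sulfonation, the other main conjugation route of steroids and bile acids, was described by a list of 11 genes, of which 10 were tested. In Atg7-KO against cont., 4 were called lower and 1 higher, against 18.1% and 19.9% of all genes. The median log2 fold change of the list was -0.67. Sult2a8, a bile acid sulfotransferase, was at 1073, 636 and 1268 CPM in the cont. livers, 19.2, 10.05 and 5.03 CPM in Atg7-KO livers and 68.9, 50.9 and 146 CPM in S351A. The 3 groups were apart, with a log2 fold change of -6.38 in Atg7-KO (SE 0.56, edgeR adjusted p = 7.66e-06) and -3.49 in S351A (SE 0.49, adjusted p = 3.90e-04) against cont. S351A against Atg7-KO gave 2.90 with an adjusted p of 0.177. Sult5a1 was at 130.5, 67.6 and 36.1 CPM in the cont. livers, 3.48, 1.44 and 2.29 CPM in Atg7-KO and 5.74, 21.1 and 30.8 CPM in S351A (-4.89 in Atg7-KO, SE 0.59, adjusted p = 7.10e-05).

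Sult1e1, the oestrogen sulfotransferase, had 0, 2 and 1 counts in cont., 8, 10 and 10 in Atg7-KO and 2, 6 and 26 in S351A. It was called higher in Atg7-KO (adjusted p = 0.0185), with no fold given at these counts, and not without cont. replicate 3 (adjusted p = 0.136) or Atg7-KO replicate 3 (adjusted p = 0.0582). Sult2a1 had 202 counts in the female cont. liver and 0 in both male ones, and 0, 0 and 3 in Atg7-KO. It was called lower (adjusted p = 0.0431), and the call was lost by total library size (adjusted p = 0.0578) and without its top 20 genes (0.0566), without any 1 of the Atg7-KO livers (0.0854 to 0.146) and without any 1 of the S351A livers (0.0514 to 0.0582).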
